A study of Mus musculus with 26 samples.

Results

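The cells described here are dermal fibroblasts of mouse skin that carried Ptn transcripts together with at least 1 transcript of Rxfp1, Gdf10, Crispld1 or Sim2. They were chosen by their own counts of unique molecular identifiers (UMIs, 1 per captured transcript). A member had 2 or more Ptn UMIs, 1 or more UMIs summed over Rxfp1, Gdf10, Crispld1 and Sim2 (called partner genes below), 1 or more Col1a1 UMIs and 0 Ptprc UMIs, among barcodes with 500 or more genes and at most 10% mitochondrial UMIs. This gave 795 members among 22900 fibroblasts, that is kept barcodes with Col1a1 and without Ptprc, and among 23153 kept barcodes of 33086 in all. The remaining 22105 fibroblasts are called the other fibroblasts.

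The single-cell libraries are 2 droplet tubes of FACS-isolated fibroblasts, labelled as postnatal ventral skin of the strain Prrx-Cre, with no age in days. Per the series' design text, cells of the Prrx1-positive (PPF) and Prrx1-negative (PNF) lineages, from caudal and ventral skin, unwounded and wounded, were hashtagged and pooled, so that each tube is a mixture and counts as 1 sample. The cells that Cre marks in this strain come, per the labels' genotype field, from limb bud and part of the craniofacial mesenchyme, while a reporter allele and a wound time are not given in the labels. The bulk libraries, which the choice of members did not use, hold RNA of sorted PPF and PNF from ventral skin of the same strain at E16.5, E18.5, P1 and P30, in 24 libraries and 8 groups. PNF had 2, 4, 4 and 2 libraries at these ages and PPF had 2, 2, 2 and 6. Nothing in the labels ties the libraries of a group to separate animals, so the bulk p-values measure the spread between libraries, which may be technical.

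Pleiotrophin, the product of Ptn, is a secreted growth factor that binds heparan sulphate and signals through the receptor phosphatase encoded by Ptprz1, syndecans and Alk. Rxfp1 encodes the receptor of relaxin, a hormone known for loosening collagen-rich tissue and for opposing fibrosis. Gdf10 encodes a secreted ligand of the TGF-beta family, Crispld1 a secreted protein of the CAP superfamily, Sim2 a bHLH-PAS transcription factor that pairs with ARNT, and Igfbp4 a binding protein that holds insulin-like growth factors away from their receptor. Dermal fibroblasts make the collagen of skin and differ by depth, body site and age in the signalling ligands and modulators they secrete.

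The genes lie apart in the genome. On mm10, Ptn is at chr6:36714929-36810220 on the minus strand, Rxfp1 at chr3:79641611-79737880 on the minus strand, Gdf10 at chr14:33923587-33937983, Crispld1 at chr1:17727045-17766344, Sim2 at chr16:94084931-94127032 and Igfbp4 at chr11:99041244-99054392, the last 4 on the plus strand. Promoter windows of 250 bases before the RefSeq start of the gene (GRCm38.p6) were found for 3 of these 6 genes and are shown as the start regions of genes that define or mark the subset. Crispld1, Rxfp1 and Sim2 had no window in the table. The windows run 5′ to 3′ on the strand of the gene, at chr6:36810180-36810429 for Ptn, chr14:33923337-33923586 for Gdf10 and chr11:99040994-99041243 for Igfbp4. Capitals mark matches to the GC box (GGGCGG, or CCGCCC on the other strand) or to the TATA box (TATAAA, or TTTATA on the other strand).
Ptn: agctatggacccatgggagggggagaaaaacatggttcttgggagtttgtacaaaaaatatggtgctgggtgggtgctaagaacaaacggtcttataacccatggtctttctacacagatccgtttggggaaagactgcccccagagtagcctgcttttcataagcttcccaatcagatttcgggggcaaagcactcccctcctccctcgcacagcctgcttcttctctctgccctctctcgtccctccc
Gdf10: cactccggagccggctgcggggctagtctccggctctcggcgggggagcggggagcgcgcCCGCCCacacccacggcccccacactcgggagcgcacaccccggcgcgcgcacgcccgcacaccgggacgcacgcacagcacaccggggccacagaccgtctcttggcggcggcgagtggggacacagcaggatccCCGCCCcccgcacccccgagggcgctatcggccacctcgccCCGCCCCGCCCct
Igfbp4: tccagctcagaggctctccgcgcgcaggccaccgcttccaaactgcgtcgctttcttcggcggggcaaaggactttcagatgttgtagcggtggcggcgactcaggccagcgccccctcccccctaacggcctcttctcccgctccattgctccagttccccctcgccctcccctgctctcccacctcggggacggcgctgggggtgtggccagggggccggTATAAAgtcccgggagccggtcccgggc

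The 3 windows differ in composition. GC content was 52% with 5 CpG pairs in Ptn, 78.8% with 35 CpG pairs in Gdf10 and 69.2% with 22 CpG pairs in Igfbp4, beside a median of 52.4% and 6 CpG pairs over all 32851 windows. The Gdf10 window held the GC box 4 times, all on the other strand, at 190, 54, 13 and 8 bases before the start, the last pair sharing a base. The Igfbp4 window held 1 TATA box, at 28 to 23 bases before the start, and the Ptn window held neither motif. These 2 motifs were chosen after the sequences had been seen. The core of bHLH-PAS sites (ACGTG, or CACGT), a T-box site (GGTGTGA, or TCACACC) and a GATA site (AGATAA, or TTATCT) were looked for first, and none was in the 3 windows. Among all windows, 16.6% held ACGTG, 3.33% GGTGTGA, 9.99% AGATAA, 12.4% TATAAA and 32.7% GGGCGG, on either strand.

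Members were more frequent in tube 1 than in tube 2. In tube 1, 734 of 18172 fibroblasts were members, a share of 4.04% (3.76% to 4.34%, exact Clopper-Pearson 95% interval), and in tube 2, 61 of 4728, a share of 1.29% (0.988% to 1.65%). These intervals, and those below, cover counting error only. Each tube is 1 pool, so the difference between tubes has no replicate check and no test. Median depth was 3416.5 UMIs in members against 2707 in the other fibroblasts of tube 1, and 9435 against 4436 in tube 2, and the median number of genes was 1461.5 against 1203 and 2813 against 1693. The rule itself asks for at least 3 UMIs of its 5 genes beside Col1a1, so depth bears on membership. Cells with 2000 or more UMIs were also thinned to 2000 before the rule was applied, and shallower cells were left out. The shares were then 3.02% and 0.377%, of 13248 and 4244 fibroblasts. Shares of cells given below at 2000 UMIs per cell also leave out shallower cells. For those, 640 and 60 members and 12603 and 4177 others remained. Mitochondrial UMIs made up a median of 6.42% in members and 6.47% in the others of tube 1, and 4.29% and 4.24% in tube 2.

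Hashtags give a view on doublets. Cells with 2 hashtags made up 5.59% of members and 4.28% of the others in tube 1, and 4.92% and 6.0% in tube 2, and no doublets were removed. The tubes share 42 barcodes, of which 33 and 41 were kept and 1 in each tube was a member. A single-cell level is given in CPM, the UMIs of a gene summed over cells per 1000000 UMIs of those cells. General fibroblast genes were present in the members at levels close to those of the others. Col1a2, a chain of type I collagen, stood at 20533 CPM in members and 25007 in the others of tube 1, and the small proteoglycan gene Dcn at 15720 and 15705. Col1a1 itself, which the rule asks for, stood at 17187 and 21445 in tube 1 and at 19635 and 23488 in tube 2.

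Free RNA in the droplets bears on any share of cells with a UMI. In kept leukocytes, cells with 2 or more Ptprc UMIs (36 and 13 cells, median depth 1866 and 2499 UMIs), Col1a1 had a UMI in 94.4% and 100%, so 1 Col1a1 UMI does not by itself mark a fibroblast. In the same leukocytes Ptn had a UMI in 5.56% and 7.69%, against 21.6% and 13.5% of the other fibroblasts. Rxfp1 had a UMI in 0 of 36 and 0 of 13 leukocytes, which allows a share of up to 8.33% and 23.1% by a limit of 3 counts, and in 1.71% and 1.33% of the other fibroblasts. Cells with 3 or more Rgs5 UMIs, a pericyte gene (45 and 18 cells), had Ptn in 13.3% and 11.1% and Rxfp1 in 2.22% and 0%. The UMI thresholds for leukocytes and pericytes were chosen after the data were seen.

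Levels of the genes in the rule describe the choice of members and are no finding. Ptn stood at 1814 CPM in members and 166 in the others of tube 1, and at 1102 and 59.2 in tube 2. Rxfp1 stood at 441 and 13.6 in tube 1 and at 128 and 6.15 in tube 2, Gdf10 at 197 and 9.36, then 92.2 and 8.42. Crispld1 stood at 93.4 and 5.00 in tube 1 and at 51.4 and 3.52 in tube 2, and Sim2 at 109 and 5.93, then 56.8 and 5.37. Ptn is thus the most abundant of the 5 in the members, and all 5 were lower in members of tube 2 than in members of tube 1.

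The partner genes did not all occur in the same cells. Rxfp1 had a UMI in 52.5% of members of tube 1 and 42.6% of tube 2, Gdf10 in 47.7% and 36.1%, Crispld1 in 27.8% and 32.8%, and Sim2 in 30.4% and 39.3%. A single partner was found in 414 members of tube 1 (56.4%) and 39 of tube 2 (63.9%), and all 4 in 12 and 1. Of the members with 1 partner in tube 1, 138 had Rxfp1, 149 Gdf10, 70 Crispld1 and 57 Sim2. Ptn reached 75 UMIs in a cell of tube 1 and 61 in tube 2, with medians of 5 and 4. In tube 1, 162 members (22.1%) had exactly 2 Ptn UMIs, in tube 2 17 (27.9%), and 76 and 8 members sat at both thresholds with 2 Ptn UMIs and 1 partner UMI. Just outside were 240 cells of tube 1 and 41 of tube 2 with 1 Ptn UMI and a partner, and 1623 and 168 with enough Ptn and no partner.

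Igfbp4 is a marker given for the subset that the rule did not count. It stood at 926 CPM in members and 201 in the others of tube 1, 4.60 times as much (4.41 to 4.80, 95% interval of the ratio), and at 742 and 173 in tube 2, 4.28 times as much (3.86 to 4.73). It had a UMI in 71.4% of members and 14.7% of the others in tube 1, and in 55.7% and 22.0% in tube 2. Thinned to 2000 UMIs per cell, these shares were 60.2% and 12.9% in tube 1 and 46.7% and 13.3% in tube 2. The marker was given with earlier results of these data known, so its higher level describes the members and is no test. Igfbp4 also had a UMI in 17.8% and 50.0% of the pericytes described above, so it is not a gene of the subset alone. Prrx1, the gene that names the lineages, was detected and lower in members. It stood at 416 against 623 CPM in tube 1 and at 360 against 564 in tube 2, ratios of 0.668 and 0.638.

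**Figure D1:**
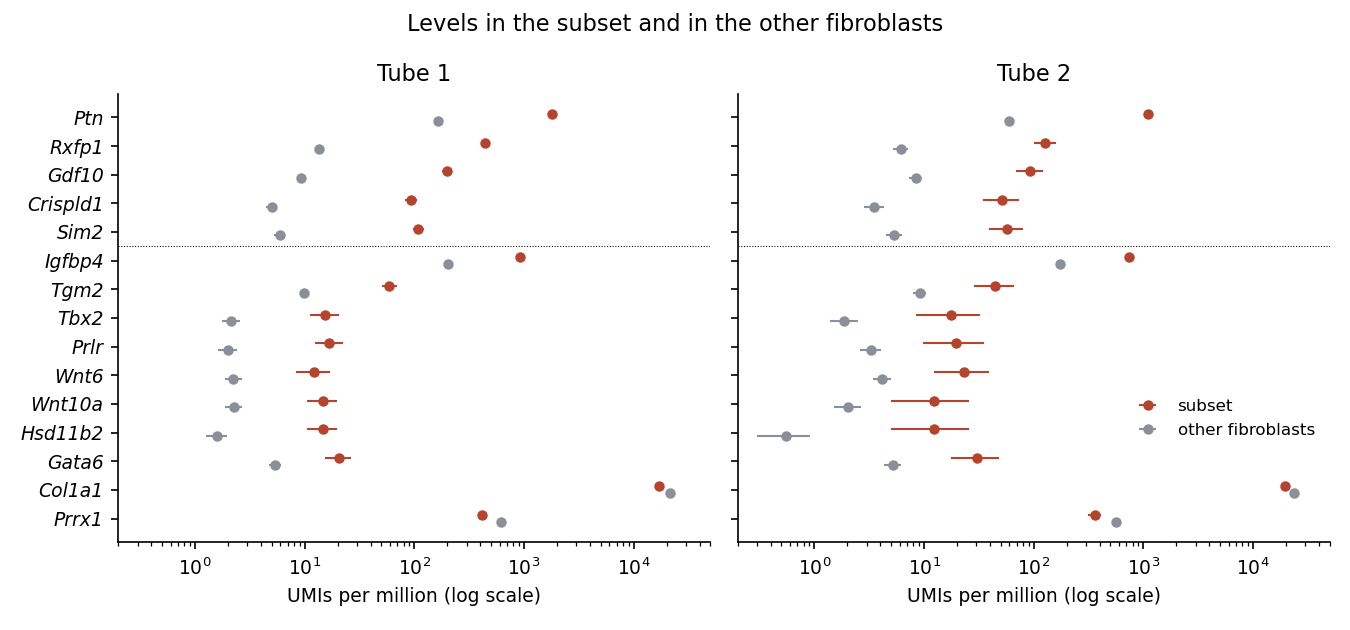
Levels of the rule genes, Igfbp4, Col1a1, Prrx1 and further named genes in the members and in the other fibroblasts, in CPM on a log axis, with 1 panel per tube and bars for the 95% counting interval. Igfbp4 sits at 926 and 742 in the members, above 201 and 173 in the others, while Col1a1 and Prrx1 sit lower in the members of both tubes.

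Across all genes, members and others differed 2-fold or more in the same direction in both tubes for few genes. Of 8043 genes with 20 or more UMIs in each tube and, in the higher group, 10 CPM or more, with the 5 rule genes left out, 74 were at least 2-fold higher in members in both tubes (0.920%), and 70 of them had ratio intervals clear of 1 in both. In the other direction 40 were at least 2-fold lower (0.497%), 38 with intervals clear of 1. The members were chosen from the same UMIs, so these genes describe the cells, and no test was made. The genes were picked by the same ratios, so intervals clear of 1 lend them no further support. A gene could enter by its level in members alone, as Hsd11b2 and Tbx2 did. The level of 10 CPM takes far fewer UMIs in members than in the others, so the counts of 74 and 40 are not compared. The plot of ratios in both tubes shows the named genes among all those measured.

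**Figure D2:**
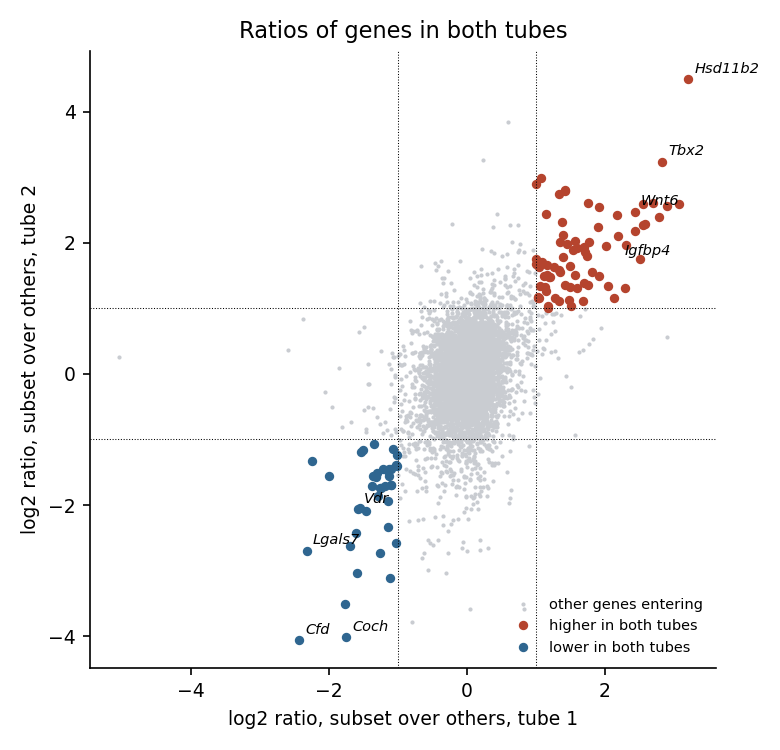
Log2 ratio of the level in members over that in the other fibroblasts, tube 1 on the x axis and tube 2 on the y axis, each point a gene with a UMI in the members of both tubes. Most genes lie near 0 on both axes, 74 lie at or above a ratio of 2 in both tubes and 40 at or below 0.5, of which Gcnt2, with 0 UMIs in members of tube 2, is not drawn.

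The genes with the largest ratios were of low level and belong to several families. Hsd11b2, which inactivates glucocorticoids, stood at 14.7 against 1.59 CPM in tube 1 (9.26 times, 41 UMIs in members) and at 12.4 against 0.548 in tube 2 (22.6 times, interval 7.74 to 60.0, from 7 UMIs). Tbx2, a T-box repressor of limb and organ patterning, stood at 15.4 against 2.15 and at 17.7 against 1.88. Prlr, the prolactin receptor, stood at 16.8 against 1.98 and at 19.5 against 3.25. All 3 were found in few member cells. Tbx2 had the highest share in a tube, 13.1% of members of tube 2 against 0.814% of the others. At 2000 UMIs per cell, these shares were 6.67% and 0.311%.

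Among the more abundant genes of this rank were an enzyme of matrix crosslinking and a channel of touch. Tgm2, the tissue transglutaminase that crosslinks matrix proteins, stood at 59.4 against 9.93 CPM in tube 1 (5.99 times) and at 44.4 against 9.12 in tube 2 (4.86 times). Piezo2, a mechanically gated ion channel, stood at 37.6 against 6.38 and at 31.9 against 6.62, and had a UMI in 10.6% and 21.3% of members. At 2000 UMIs per cell, Piezo2 had a UMI in 7.03% and 5.0% of members and in 1.21% and 1.17% of the others. Glrb, the beta subunit of the glycine receptor, stood at 40.8 against 5.89 and at 23.1 against 4.39. Bckdhb, a subunit of the enzyme complex that breaks down branched-chain keto acids, reached 69.1 against 15.3 and 62.1 against 11.5. It had a UMI in 20.7% and 29.5% of members. At 2000 UMIs per cell, it had one in 13.1% and 15.0% of members and in 2.94% and 1.96% of the others. Ramp3, a partner protein of calcitonin-family receptors, was 5.42 and 4.53 times as high, Sapcd1 7.46 and 5.91 times, and Sardh, a mitochondrial enzyme of sarcosine breakdown, 4.07 and 3.87 times. Gata6, a zinc finger transcription factor, stood at 20.4 against 5.38 and at 30.2 against 5.17. Aldh1a3, which makes retinoic acid, stood at 14.7 against 2.95 and at 23.1 against 5.91.

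Some genes higher in members are secreted, matrix or adhesion genes of higher level. Col14a1, a collagen that sits on the surface of collagen fibrils, stood at 986 against 433 CPM in tube 1 and 763 against 273 in tube 2, with a UMI in 87.9% and 86.9% of members and 53.5% and 51.8% of the others. Angptl1, a secreted angiopoietin-like protein, stood at 334 against 102 and 323 against 89.3, and Pi15, which like Crispld1 belongs to the CAP superfamily, at 267 against 46.8 and 170 against 50.5. Pi15 was not in the CAP superfamily list used here. In that list 0 of 3 genes beside Crispld1 passed either bound, with median log2 ratios of -0.13 and -0.74. Fibin stood at 179 against 66.3 and 177 against 69.5, and Vcam1, an adhesion molecule for leukocytes, at 117 against 42.9 and 112 against 28.3. Vcam1 had a UMI in 29.0% and 36.1% of members and in 9.48% and 9.51% of the others. At 2000 UMIs per cell, these shares were 17.7% and 10.0% of members and 7.43% and 4.60% of the others. For Col14a1 they were 80.3% and 63.3% of members and 48.2% and 33.4% of the others. These genes, except Col14a1, were named after their values were seen. Postn, a matricellular protein of wounds and tendon-like tissue, was 1.99 times as high in tube 1 (2899 against 1453) and 2.92 times in tube 2 (2830 against 970), and missed the 2-fold bound in tube 1.

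WNT ligands and modulators were the list with the most genes higher in members. Of 20 genes of the WNT pathway list that entered, 5 were higher in both tubes and 1 was lower, beside 0.920% and 0.497% of all genes, with a median log2 ratio of 0.44 in tube 1 and 0.07 in tube 2, against 0.01 and 0.05 over all genes. Wnt10a and Wnt6, secreted ligands whose genes are neighbours on chromosome 1 (74791516 to 74804179 and 74771892 to 74785322), stood at 14.7 against 2.27 and 12.4 against 2.04 for Wnt10a and at 12.2 against 2.25 and 23.1 against 4.15 for Wnt6. Wnt11 stood at 11.1 against 3.42 and 14.2 against 3.72, and Wnt2 at 18.98 against 8.99 and 33.7 against 4.27. Sfrp2, a secreted WNT modulator with a far higher level, stood at 374 against 140 and 442 against 63.7. Wif1, a secreted WNT inhibitor, was the lower one, at 2.86 against 13.5 and 8.87 against 22.3. Sfrp4 was close to the others in tube 1 (75.2 against 49.5) and 14.4 times as high in tube 2 (461 against 32.1), so the tubes differ on this gene.

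Growth factor axes around the defining genes were split. Over all genes 0.920% were higher and 0.497% lower. In the IGF list, 2 of 12 genes were higher and 1 lower. Igf1, the ligand, stood at 1093 against 481 CPM and at 523 against 254, and Igfbp4 is the other higher gene, while Igfbp2, another binding protein, stood at 75.9 against 220 and at 126 against 287. Igfbp3 stood at 386 against 51.5 in tube 1 (7.49 times) and at 158 against 106 in tube 2 (1.48 times), so its large ratio was that of 1 tube. In the BMP and GDF list 1 of 19 was higher, Bmp2 (24.7 against 7.21 and 24.8 against 6.15), and 1 lower, Bmp4 (24.7 against 52.7 and 17.7 against 57.7), both secreted BMP ligands. In the TGF-beta list 0 of 18 passed either bound, with Tgfb3 at 1.86 and 2.31 times and the activin subunit gene Inhba at 0.286 and 0.570 times the level of the others.

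Signalling partners of pleiotrophin and relaxin were mostly level between members and others. In the pleiotrophin and midkine list 1 of 10 genes was higher, beside 0.920% of all genes. This was Mdk, the other gene of the pleiotrophin family, at 130 against 40.1 CPM and at 105 against 40.1. The receptor genes Ptprz1 and Alk had 0 UMIs in members of tube 1, and the syndecan gene Sdc1 was 1.51 and 2.04 times as high. In the relaxin list 0 of 3 genes passed, and the relaxin gene Rln1 had 0 UMIs in members of tube 1. Of the partners of Sim2, 0 of 6 passed, with Arnt at 50.1 against 51.4 and 42.6 against 47.3.

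Transcription factors of position were higher in members for 3 of 17 genes of the HOX and positional list, and for 2 of 22 of the list of mesenchymal factors, beside 0.920% of all genes. Beside Tbx2, the related repressor Tbx3 stood at 56.6 against 11.6 CPM and at 42.6 against 17.2, and Hoxb9, a posterior HOX gene, at 43.0 against 17.7 and 35.5 against 15.8. Tshz2 stood at 130 against 46.1 and 163 against 52.2, and the nuclear receptor gene Nr2f1 at 21.5 against 5.17 and 10.6 against 4.19, the last from 6 UMIs. Tbx15, a T-box gene of dermis, was lower at 0.525 and 0.314 times. Of 8 fetal-like growth genes, 2 were higher, the imprinted genes H19 (149 against 50.0 and 119 against 29.2) and Mest (40.1 against 15.8 and 55.0 against 8.18).

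Cell cycle genes were higher in a small number of members. Of 16 genes, 3 were at least 2-fold higher in both tubes, beside 0.920% of all genes, with a median log2 ratio of 0.70 and 1.37. Mki67, a marker of cycling cells, stood at 36.5 against 16.8 and 42.6 against 15.1, the centromere gene Cenpf at 38.3 against 12.9 and 28.4 against 10.0, and the cyclin gene Ccnb2 at 18.6 against 8.97 and 19.5 against 6.31. Mki67 had a UMI in 5.04% of members and 2.45% of the others in tube 1, and in 8.20% and 3.69% in tube 2. At 2000 UMIs per cell those shares were 3.59% and 1.96%, and 3.33% and 2.03%. The part of doublets in these values was not tested.

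Matrix, contractile and inflammatory lists showed few genes past the bounds, beside 0.920% higher and 0.497% lower over all genes. Of 32 collagen and fibrillar matrix genes 2 were higher, Col14a1 and the small proteoglycan gene Fmod (14.7 against 5.74 and 99.3 against 24.6), and 0 of 14 contractile and myofibroblast genes, with Acta2 at 0.541 and 0.812 times. For basement membrane, matrix remodelling, the reticular and fascia list, dermal sheath, preadipocyte and nerve growth lists, 0 genes of 14, 17, 14, 8, 8 and 14 passed in either direction. Of 21 acute phase and chemokine genes 2 were lower, Cxcl13 (35.1 against 83.4 and 31.9 against 107) and the neutrophil chemokine Cxcl5 (44.8 against 106 and 273 against 909). Among the complement and interferon genes, Cfd was lower, with values given below. Of 20 immediate early genes, Egr2 was higher (62.7 against 18.54 and 28.4 against 11.1).

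Markers of other fibroblast classes were mixed in the members. The counts below stand beside 0.920% higher and 0.497% lower over all genes. In the papillary list 1 of 10 was lower, Cyp26b1, which breaks down retinoic acid (163 against 422 and 163 against 536), while Aldh1a3, which makes it, was higher. In the dermal papilla list 2 of 7 were lower, Wif1 and Bmp4. In the list of Pi16 and Dpp4 universal fibroblasts 1 of 11 was higher, Wnt2, while Pi16 itself was 0.814 and 0.376 times and Dpp4 0.714 and 0.688 times the level of the others. In the tendon list 1 of 6 was higher, Fmod, and Thbs4 was 1.36 times as high in tube 1 and 5.44 times in tube 2. Pi16 had a UMI in 48.0% of members and 47.0% of the others in tube 1 and in 55.7% and 60.2% in tube 2, and at 2000 UMIs per cell in 36.7% and 41.2%, and 33.3% and 44.1%. H19 had a UMI in 12.8% and 3.81%, and 19.7% and 5.74%, and at 2000 UMIs in 10.0% and 3.38%, and 10.0% and 3.16%. Apoe, a lipid carrier gene, had a UMI at 2000 UMIs per cell in 70.8% of members and 55.3% of the others in tube 1, and in 58.3% and 58.0% in tube 2. For Wnt5a, a WNT ligand, these shares were 16.7% and 10.6%, and 8.33% and 11.1%, so for both genes the tubes differ.

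Genes lower in members were of 2 kinds when all UMIs were counted. For some, fewer cells had a UMI. Cpe, a peptide processing enzyme, stood at 46.2 against 140 CPM in tube 1 and 12.4 against 102 in tube 2, with a UMI in 12.1% of members and 26.2% of the others, and in 9.84% and 29.1%. Serpina3c, a serine protease inhibitor, stood at 29.4 against 80.7 and 19.5 against 83.2, and the vitamin D receptor gene Vdr at 6.44 against 19.3 and 7.10 against 29.5. Pla2g5 (3.58 against 12.1 and 1.77 against 20.1), Thsd7a (5.37 against 15.6 and 7.10 against 29.2), Chchd10 (5.73 against 17.4 and 7.10 against 38.3) and Gcnt2 (4.65 against 12.2, and 0 UMIs against 14.5) were of this kind too. Coch, a secreted matrix protein, stood at 16.47 against 55.4 and 7.10 against 115, with a UMI in 2.59% against 4.22% and 6.56% against 10.8% of cells.

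For others the summed level differed while the share of cells with a UMI hardly did. Cfd, the adipocyte protease adipsin, stood at 5.37 against 28.9 CPM in tube 1 and 10.6 against 177 in tube 2, yet had a UMI in 2.04% of members and 1.45% of the others, and in 9.84% and 11.3%. Lgals7, a keratinocyte galectin, stood at 2.15 against 10.7 and 3.55 against 23.0, with a UMI in 0.817% and 0.768%, and in 3.28% and 3.32%. Rgs5, the pericyte gene, stood at 3.94 against 15.8 and 5.32 against 15.7, with a UMI in 0.817% and 0.602%, and in 3.28% and 1.52%. Cells with a UMI of these genes thus held fewer of them in members than among the others. Mcpt4, a mast cell protease, stood at 3.22 against 10.4 and 1.77 against 10.97, from 9 and 1 UMIs in members.

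Summed markers of other cell types were lower in members than in the others for the lists given here, by little for endothelial and pericyte genes. Summed over 14 leukocyte genes, the level was 23.99 in members and 57.0 in the others of tube 1 and 12.4 and 72.6 in tube 2, with 2 and 9 of the genes at 0 in members. Over 14 keratinocyte genes it was 49.4 and 76.3, then 19.5 and 82.3, with 5 and 11 at 0. Over 12 endothelial genes it was 48.3 and 50.4, then 33.7 and 43.3, with 4 and 7 at 0. Over 12 pericyte and smooth muscle genes it was 253 and 281, then 300 and 353, with 2 and 3 at 0. Clec14a, a gene known from endothelium and one of the 74 higher genes, stood at 15.4 against 4.12 and at 12.4 against 2.62. Of 12 Schwann genes 4 and 6 were at 0 in members, Sox10, their defining transcription factor, among them.

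Within the subset, the 74 genes stood higher in members with more partners. Summed, these genes stood at 2391 CPM in the other fibroblasts of tube 1, at 4348 in the 76 members at both thresholds, at 6194 in members with 1 partner and at 7849 in those with 2 or more. In tube 2 the same sums were 1804, 3896, 5663 and 6206. The members that only just met the rule thus lay between the others and the rest of the subset in both tubes. The sums of members with a single partner in tube 1 were 7277 with Crispld1, 6448 with Rxfp1, 5983 with Gdf10 and 4969 with Sim2, each above the 2391 of the others. The 74 genes were chosen on these cells, so these sums are a description. Sums over genes named in the other tube also rose with partner UMIs, except in tube 1 members with 3 or more Ptn UMIs. Those stood at 19782 with 1 partner UMI and at 18456 with 2 or more.

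Single genes differed between members by partner. Igfbp4 in tube 1 stood at 1065, 845, 860 and 706 CPM in members with only Rxfp1, Gdf10, Crispld1 and Sim2, all above the 201 of the others. Glrb stood at 54.0 in members with only Rxfp1, at 29.3 with only Sim2, and at 6.42 and 7.05 with only Gdf10 and only Crispld1, close to the 5.89 of the others. Hsd11b2 had the opposite order, with 31.7 for only Crispld1 and 22.5 for only Gdf10 against 4.32 for only Rxfp1, the last from 2 UMIs. Igfbp3 stood at 652 with only Rxfp1 against 124, 49.3 and 109 with only Gdf10, Crispld1 and Sim2. In tube 2, with 8 to 12 cells per class, Igfbp3 stood at 101, 8.39, 20.5 and 97.2. Igfbp3 was added to this comparison after its values were seen, and the classes of both tubes are 1 sample each.

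A profile named in 1 tube and measured in the other uses cells that did not choose the genes, although both tubes use the same rule for the cells. The 153 genes that were 2-fold higher in members of tube 1 summed to 8530 CPM in members of tube 2 and to 3460 in the others, 2.46 times as much (2.39 to 2.54). The 420 genes named in tube 2 summed to 18419 and 10594 in tube 1, 1.74 times as much (1.72 to 1.75). Among tube 2 cells without a partner UMI, the profile stood at 3090 with 0 Ptn UMIs, 3274 with 1, 3640 with 2 and 7003 with 3 or more. Among cells with 2 or more partner UMIs it stood at 8114 with 0 Ptn UMIs, 7025 with 1, 6006 with 2 and 10285 with 3 or more. So in tube 2, 110 cells with at least 3 Ptn UMIs and no partner, and 79 with 2 or more partner UMIs and no Ptn, stood outside the rule. Both classes lay above members with 2 Ptn UMIs and 1 partner UMI, at 5398 in 8 cells. With the tubes exchanged, the first class stood at 18369 in 951 cells of tube 1 and the second at 15937 in 266 cells. The 76 members with 2 Ptn UMIs and 1 partner UMI stood at 16388 there, so only the first class lay above such members in both tubes. Median depth ran from 4192 UMIs in cells with neither to 9829 in cells with both. In tube 2 cells thinned to 2000 UMIs, the first class stood at 7164 and the second at 7795. Members with 2 Ptn UMIs and 1 partner UMI stood at 6437.5 there. Their interval, 5254.5 to 7807, reached both classes, so that order is not clear at equal depth. In thinned cells of tube 1 these levels were 18506, 15653 and 16750. The part of depth in the choice of classes was not tested.

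**Figure D3:**
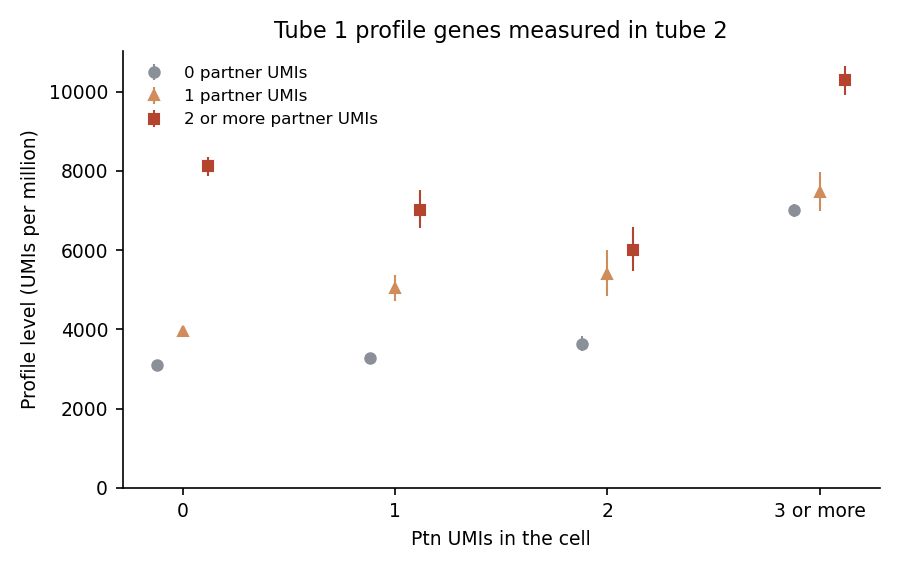
Level of the 153 profile genes of tube 1 in fibroblasts of tube 2, in CPM, by Ptn UMIs in the cell on the x axis, with 1 marker shape for each class of partner UMIs and bars for the 95% counting interval. Cells with neither stand at 3090 and cells with 3 or more Ptn and 2 or more partner UMIs at 10285, while cells with 2 or more partner UMIs are already at 8114 with 0 Ptn UMIs.

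The hashtags are a readout that the rule did not use. Hashtags 1 to 6 carried counts in both tubes, and they are named only by number, so they could not be tied to lineage, skin site or wound, and no test was made. A single clear hashtag was found on 30.2% of fibroblasts of tube 1 and 25.3% of tube 2, and on 223 and 19 members. In tube 1 the share of members ran from 2.27% (31 of 1366, interval 1.55% to 3.21%) under hashtag 1 to 9.30% (62 of 667, 7.20% to 11.8%) under hashtag 3, with 4.68%, 4.48%, 3.37% and 2.80% under hashtags 2, 4, 5 and 6. The interval of hashtag 3 lay above those of the other 5 here, and overlapped that of hashtag 2 when the top hashtag had to be 4 times the second (6.23% to 11.4% against 3.19% to 7.70%), with raw hashtag counts (6.0% to 11.4% against 3.90% to 7.25%) and in thinned cells (5.26% to 10.1% against 2.65% to 6.18%). Median depth ran from 2595 UMIs under hashtag 2 to 3494 under hashtag 1, and in thinned cells the share under hashtag 1 was 0.894%. The part of depth was not tested. In tube 2 the shares were 3.21% (8 of 249), 0% (0 of 101, which allows up to 2.97% by a limit of 3 counts), 2.42%, 1.26%, 0.840% and 0.413% for hashtags 1 to 6, with intervals that overlap. A hashtag number need not mark the same sample in both tubes.

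**Figure D4:**
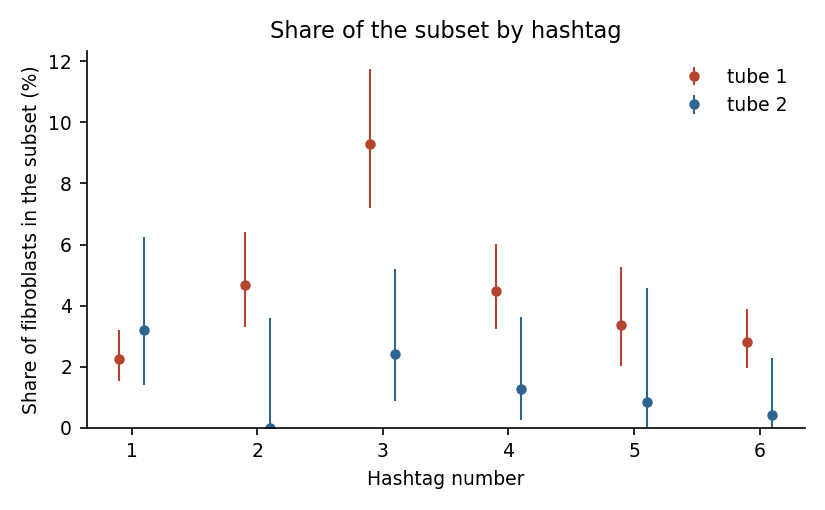
Share of fibroblasts that are members, in percent, by hashtag number, with 1 colour per tube and bars for the exact 95% binomial interval. Hashtag 3 of tube 1 stands at 9.30%, above the other hashtags of tube 1 at 2.27% to 4.68%, and the tube 2 shares lie between 0% and 3.21%.

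The bulk libraries were used to ask how the genes of the subset behave in sorted PPF and PNF and with age. In a bulk library, fewer cells of a type and less RNA per cell cannot be told apart. Bulk levels are also CPM, here read counts of a gene per 1000000 of its library after TMM scaling. Libraries held 4264657 to 17190154 counts in genes, and 15559 genes were tested in 1 edgeR quasi-likelihood fit of 8 groups. Ptprc, Gdf10 and Bckdhb were listed at 0 in all 24 libraries. The labels do not state how reads shared by several transcripts of a gene were counted, and the part of that step in these 0 values and in the low Col1a2 was not tested, so they are not read as absence. Red cell Hba-a1 ran from 2.82 to 229 CPM in PPF and from 15.4 to 14796 in PNF, and keratinocyte Krt14 from 0 to 961 and from 13.0 to 1913, and their part in the results was not tested. Fibroblast genes were present, with Dcn at 496 to 4165 CPM in PPF and 141 to 2132 in PNF, and Col1a2 at 8.96 to 137 and 0 to 30.5. Some libraries of a group lay close in pairs. PPF P30 C and D held Col1a1 at 124670 and 103208 CPM, and E and F at 10938 and 14794. PNF E18.5 C and D held Krt14 at 1913 and 1706, and A and B at 96.2 and 13.0. Tbx2 was less alike in PPF P30, at 0 and 8.96 in C and D and 5.90 and 29.0 in E and F. The fit counts each library as 1 replicate, and whether such pairs share animals was not tested.

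Ptn was measured in every bulk library. In PNF it stood at 186 and 193 CPM at E16.5, at 25.5, 198, 132 and 138 at E18.5, at 75.6, 57.3, 136 and 94.4 at P1 and at 326 and 42.6 at P30. In PPF it stood at 125 and 310 at E16.5, 45.2 and 46.6 at E18.5, 35.0 and 81.2 at P1, and 64.8, 13.1, 1.99, 10.8, 41.2 and 30.7 at P30. The P30 PPF libraries were mostly the lowest, and PPF and PNF overlapped at E16.5, E18.5, P1 and P30. Averaged over ages, the log2 difference of PPF from PNF was -1.16 ± 0.49 (SE) and did not pass (edgeR adjusted p = 0.272). At P30 it was -2.76 ± 0.80 (edgeR adjusted p = 0.178), and P30 against E16.5 averaged over lineages gave -1.52 ± 0.70 (edgeR adjusted p = 0.291). The P30 difference passed with upper quartile scaling (-3.80, edgeR adjusted p = 0.0227) and without PNF P30 B (-3.51, edgeR adjusted p = 0.00763), which leaves PNF P30 as 1 library assumed to vary like the others. Without PNF P30 A the difference was -0.71 (edgeR adjusted p = 1.00). PNF P30 A held Ptn at 326 CPM against 42.6 in B, Hba-a1 at 4086 CPM against 17.9, and Prrx1 and Col1a2 at 0. The age difference passed with limma voom (-2.38, adjusted p = 0.0196).

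Of the other rule genes, Gdf10 was among the genes listed at 0 and was not tested. Rxfp1 was at 0 in 3 of 4 libraries at E16.5, with 0.110 CPM in the other, and stood at 1.66, 0.788, 0, 0, 21.9 and 11.98 in PPF and at 0 and 6.69 in PNF at P30. Crispld1 stood at 3.83, 23.7, 1.66, 0, 7.50 and 6.26 CPM in PPF and at 0 and 3.84 in PNF at P30, and Sim2 at 84.7, 0, 9.96, 0, 18.1 and 30.6 and at 166 and 2.86. At P30 the PPF libraries ran from 0 to 21.9 CPM for Rxfp1, 23.7 for Crispld1 and 84.7 for Sim2. In the main fit none of the 3 passed in any of the 3 comparisons, with edgeR adjusted p of 0.161 to 0.942 for Rxfp1, 0.316 to 0.828 for Crispld1 and 0.563 to 0.849 for Sim2. Rxfp1 passed between P30 and E16.5 with DESeq2 (log2 7.07, DESeq2 adjusted p = 0.0262). Igfbp4 had a mean of 1191 CPM in PPF and 970 in PNF, a log2 difference averaged over ages of -0.18 ± 0.33 (edgeR adjusted p = 0.943), and 0.72 ± 0.63 at P30 (edgeR adjusted p = 0.791).

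**Figure D5:**
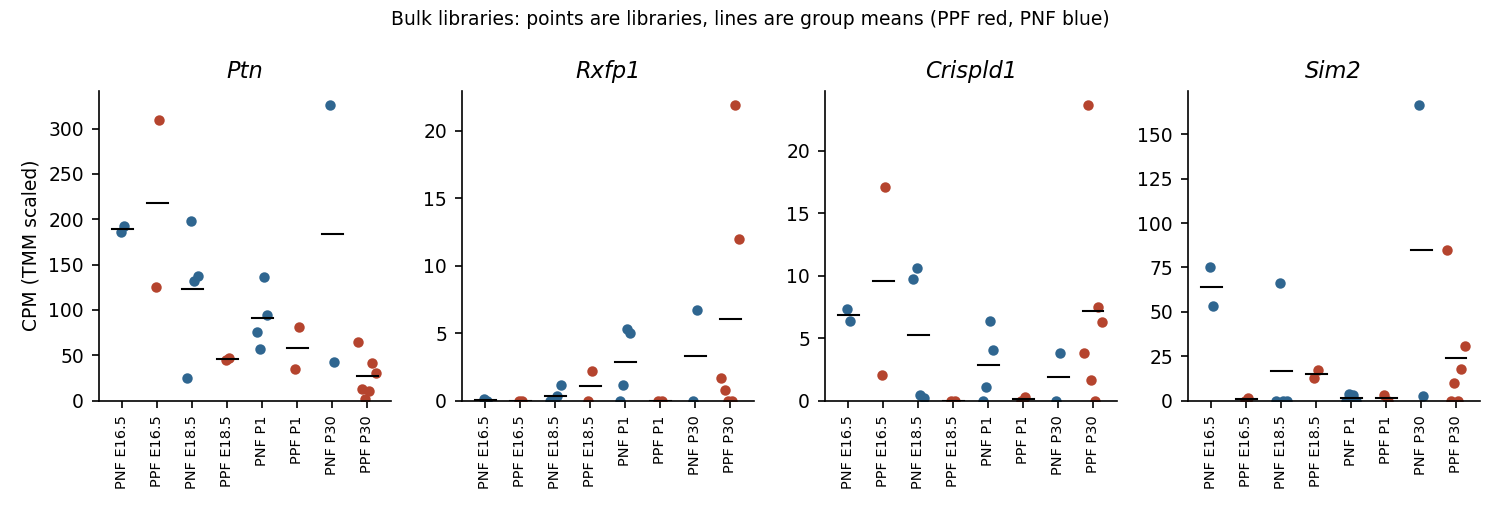
Levels of Ptn, Rxfp1, Crispld1 and Sim2 in the 24 bulk libraries, in TMM-scaled CPM on linear axes that start at 0, by group, with points for libraries and black lines for group means, PPF in red and PNF in blue. Ptn lies between 1.99 and 64.8 CPM in PPF at P30 and at 42.6 and 326 in PNF at P30, and the libraries of single groups are spread widely for the other 3 genes too.

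The genes 2-fold higher in members showed few changes in bulk. Of the 74, 73 were in the bulk tables and 62 passed the filter on low counts. Between PPF and PNF averaged over ages, 0 of the 62 passed in edgeR in either direction, beside 0.0836% of all genes higher and 0.591% lower. An unadjusted edgeR p under 0.05 was found for 13 of the 62, beside 2164 of all 15559 genes tested. At the adjusted threshold 7 passed by DESeq2 and 2 by limma voom, and the counts of these tools over all genes are given at the end. Their median log2 difference was -0.43, beside -0.14 over all genes. At P30, 0 passed in edgeR, beside 0.00643% and 0.116%, with 15 at an unadjusted p under 0.05, beside 1516 of all 15559 genes. By DESeq2 1 passed and by limma voom 0, and the median was 0.20, beside 0.38. The edgeR counts at the adjusted threshold are this close to the background and are not a result about these genes. No test was made of the unadjusted counts as a set.

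Between P30 and E16.5, averaged over lineages, 1 of the 62 genes rose and 1 fell, beside 0.418% and 0.334% of all genes. An unadjusted p under 0.05 was found for 20 of the 62, beside 2465 of all 15559 genes. Spon1, a secreted adhesion protein of matrix, rose from 22.8 to 87.2 CPM in the 4 E16.5 libraries to 168 to 1391 in the 8 P30 libraries, without overlap (log2 3.57 ± 0.70, edgeR adjusted p = 0.0227). The cyclin gene Ccnb2 fell from 192 to 244 CPM to 0 to 49.4, without overlap (-4.26 ± 0.95, edgeR adjusted p = 0.0382). Both were among the genes higher in members of the postnatal tubes, Spon1 at 87.7 against 23.3 CPM and 110 against 39.2. Neither call held when the fit was limited to the 4 groups compared (edgeR adjusted p = 0.0769 and 0.161), nor without any 1 of the 4 E16.5 libraries (0.0841 to 0.213 for Spon1 and 0.115 to 0.188 for Ccnb2), and the Ccnb2 call was also lost without PNF P30 A, PPF P30 E or PPF P30 F (0.0528 to 0.0862). Of the genes that led in single cells, Gata6 had 18.2 to 45.9 CPM at E16.5 and 0 to 16.1 at P30, without overlap, and did not pass (-3.24 ± 1.37, edgeR adjusted p = 0.242). Tbx2 and Wnt6 did not pass in any of the 3 comparisons.

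Of the 40 genes lower in members, 37 were in the bulk tables and 32 were tested. Averaged over ages, 2 fell in PPF relative to PNF, beside 0.591% of all genes. At P30 0 passed in edgeR, beside 0.00643% higher and 0.116% lower over all genes. An unadjusted p under 0.05 was found for 8 of the 32, beside 1516 of all 15559 genes. Lgals7 had 0 to 423 CPM in PPF and 7.94 to 579 in PNF (-4.43 ± 0.71, edgeR adjusted p = 0.00706), and Mcpt4 0 to 260 and 0 to 502.6 (-7.66 ± 1.54, edgeR adjusted p = 0.0240), both with overlap between lineages. At P1 Lgals7 went the other way, at 362 and 423 CPM in PPF and 17.7 to 206 in PNF. They are keratinocyte and mast cell genes, and Krt14 was higher in the PNF libraries by its median (223 against 7.98 CPM), and its part was not tested. Between P30 and E16.5, 1 of the 32 rose, Aldh3a1, an aldehyde dehydrogenase, at 0 in the 4 E16.5 libraries and at 0 to 11.3 CPM at P30 (edgeR adjusted p = 0.0362), with 1 P30 library, PNF P30 A, at 0. Over all genes 0.418% rose. The median log2 difference of the 32 genes was 1.74, beside -0.01 over all genes, with 25 of 32 above 0 (78.1%, beside 49.3% of all genes). An unadjusted p under 0.05 was found for 14 of them, beside 2465 of all 15559 genes. The Lgals7 call was lost without PPF E16.5 A or B, PPF E18.5 A or PPF P1 A or B (edgeR adjusted p = 0.0580 to 0.106), and the Mcpt4 call without any of those or PPF E18.5 B or PNF P30 B (0.155 to 1.00). The Aldh3a1 call was lost when the fit was limited to the 4 groups compared (0.0879) and without any of the 4 E16.5 libraries, PNF P30 B or PPF P30 E or F (0.0540 to 1.00).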

How the data were processed

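Single cells were measured in 2 pooled droplet tubes and bulk RNA in 24 libraries. The deposited matrices hold UMI counts per gene and hashtag on mm10, as the authors made them, per the file headers. The authors deposited bulk read counts per transcript, per the file headers. The submitters' processing notes name Seurat, without saying for which step. Transcripts (95883, of which 82946 matched) were summed to 34030 genes by the GENCODE table, and 5.253% of counts had no match.

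Single-cell levels are summed UMIs per 1000000 (CPM) with exact intervals. A hashtag was assigned where its count over its median was at least 4 and at least 2 times the second. Bulk genes past edgeR's filterByExpr were tested with edgeR 4.0.16 (quasi-likelihood, TMM, R 4.3.3) at a Benjamini-Hochberg adjusted p of 0.05. SE is the log2 difference over the square root of F. Alternatives used DESeq2 1.42.0 and limma 3.58.1. Tests and summaries were checked on simulated data. Other work used Python 3.11.15, numpy 2.4.6, scipy 1.17.1, pandas 2.3.3 and matplotlib 3.10.9.

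Members and gene lists were chosen with earlier results of these data known. Named genes were the rule genes, Igfbp4, Col1a1 and Prrx1, up to 15 higher and 12 lower genes by the ratio in the weaker tube, up to 4 per list with the same sign in both tubes, and up to 4 called profile genes per bulk comparison. Other genes were named after their values were seen. Library letters were not used to pair the bulk samples, because the labels do not say what the letters mark. Correlations of same-letter deviations ran from -0.0268 to 0.0787, which cannot show whether same-letter libraries share animals.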

Additional observations from a re-analysis of the deposited data

Results flagged for a closer look

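In 21 groups of 4 to 6 bulk libraries, the rule genes, Igfbp4, Col1a1 and Prrx1 were searched for a library far from the rest of its group, and 4 groups had one. Chance gives about 1 in 20 groups, and these groups share libraries, so they are not independent. Crispld1 reached 23.7 CPM in PPF P30 B, where the next library of the group had 7.50. Sim2 reached 66.1 CPM in PNF E18.5 B, where the other 3 libraries had 0. Sim2 reached 84.7 CPM in PPF P30 A, where the next library had 30.6. Prrx1 reached 104 CPM in PNF E18.5 A, where the next library had 46.7, and this library is 1 of the 3 with Hba-a1 above 1000 CPM. No explanation for these values was tested.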

How the results depend on the processing

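The mean share of members over both tubes, 2.66%, was 3.23% at 1000 genes per cell, 2.49% at a limit of 5% mitochondrial UMIs, 2.04% and 3.76% with at least 3 and at least 1 Ptn UMIs, 1.74% with 2 or more partner UMIs, 2.42% without Sim2, 1.70% after thinning before the rule, 2.44% without the top 5% of UMIs, and 1.29% and 4.04% from single tubes. The count of 74 higher genes became 114 after thinning before the rule (44 shared), 361 with no entry level, 184 and 24 at ratios of 1.5 and 3, and 153 to 420 from single tubes. The count of 40 lower genes became 92 at 5% mitochondrial UMIs, 15 with 1 Ptn UMI, 169 after thinning before the rule (29 shared), 65 with thinned values (30 shared), 81 with no entry level, 139 and 7 at ratios of 1.5 and 3, and 82 to 383 from single tubes. The profile ratio of 2.46 was 1.74 with the tubes exchanged and 2.61 in thinned cells. Thinning before the rule left too few Hsd11b2 UMIs for a ratio.

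In bulk, the 105 calls averaged over ages became 836 with DESeq2, 160 with limma voom, 426 without a filter, 454 without 3 libraries rich in Hba-a1 (chosen after seeing the data), and 2 to 1480 when each library was left out. The 0 calls among higher profile genes became 7, 2, 5 and 4, 1 with upper quartile scaling, and 0 to 8. The 19 calls at P30 became 227, 33, 144 and 33 in the same order, 9 with RLE scaling, 315 with upper quartile scaling, 1 with only these groups, and 3 to 2687. Among higher profile genes, 0 became 1 with DESeq2, 3 with upper quartile scaling, 2 without a filter, and 0 to 15. The 117 calls between P30 and E16.5 became 1278, 983, 210 and 747 in that order, 20 with only these groups, and 0 to 1702, and the 2 among higher profile genes became 9, 14 and 7 with DESeq2, limma voom and without the 3 libraries, 0 with only these groups, and 0 to 7. The highest counts, 1480, 2687 and 1702, came without PNF P30 B, which leaves PNF P30 as 1 library, and the 0 without PNF E16.5 B. Prrx1 between P30 and E16.5 turned from 0.13 to -5.31 without PNF P30 B, the low end of -5.31 to 0.63 over libraries left out. Over single bulk genes and settings, 294 results kept their side of the threshold, 10 passed it newly and 8 lost it, and with a library left out these were 493, 4 and 30. Among single-gene ratios, 138 stayed past 2-fold and Rgs5 went from 0.340 to 0.514 in the weaker tube with 2 or more partner UMIs. The causes were not tested. With few UMIs in the 61 members of tube 2, counting error limits single genes there.

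The replicate block by library letter, whose meaning the labels do not give, gave 28, 0 and 20 calls in the 3 comparisons. Among the higher profile genes it gave 0, 0 and 0. With the block, edgeR adjusted p was 0.0745 for Spon1, 0.136 for Ccnb2, 0.159 for Aldh3a1 and 0.0743 for Mcpt4, so these calls were lost.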
